A study of Danio rerio with 9 samples.

Results

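Aquaporins are channel proteins that let water cross cell membranes, and some of them, the aquaglyceroporins, also carry glycerol and other small uncharged molecules. In the mammalian kidney, members of the family sit in the proximal tubule and the collecting duct, and vasopressin controls how much water the collecting duct takes back. The kidney of a freshwater fish instead excretes the water that enters the body, and in the adult zebrafish it also holds the blood-forming tissue. The genes described here were found by their symbols in the deposited gene table, and 9 of the 10 symbols listed were matched to 1 row each among 30628 genes. They are *aqp1a.1*, *aqp1a.2*, *aqp3a*, *aqp7*, *aqp8a.1*, *aqp8a.2*, *aqp9b*, *aqp10a* and *aqp12*, and *aqp9a* was not analysed here.

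RNA of whole kidneys was sequenced from 12-month-old wild-type zebrafish of the WIK strain, with 4 male and 5 female libraries and no treatment in the labels. The male libraries are M1, M2, pkd1M1 and pkd1M4, of which the last 2 carry the name of a polycystic kidney disease gene beside the abbreviation for wild type, and the female libraries are F1, F2, F3, F4 and F6. Where a gene has a value for every library, the values follow this order. The sources describe the material as sets of kidneys and do not say how many fish a set holds, so p-values measure the spread between these libraries. Values are estimated counts per gene, given here as CPM, that is, as counts scaled to a common library size after TMM normalisation, and a log2 fold change is male over female. Levels were not divided by transcript length and are therefore not ranked between genes as expression. Shares of a pair of genes, and a choice of members by mean CPM, rest on counts that also depend on transcript length.

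Total counts were between 24902978 and 52986838 in male libraries and between 30714070 and 38758188 in female libraries. All 8 proximal tubule and all 10 distal nephron marker genes had counts in every library. F1 stood apart by RNA of oocyte genes, with a summed 3478 CPM over 13 genes, against 5.08 to 133 CPM in the other females and 2.5 to 8.17 CPM in males. Liver genes were highest in pkd1M4 and F2, with summed values of 1929 and 1366 CPM over 11 genes, against 118 to 755 CPM in the other libraries.

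Of the 9 aquaporin genes, 8 passed the filter on low counts and *aqp8a.2* did not. Only *aqp7* differed between the sexes at an adjusted p under 0.05 (edgeR quasi-likelihood test, Benjamini-Hochberg adjustment over all 22148 genes tested), and it was lower in males. That is 1 of 8 genes, where 13.2% of all genes tested passed the same limit. None passed the second threshold as well, an absolute log2 fold change above 1.5, which 6.54% of all genes did. At an unadjusted p under 0.05 there were 2 of 8, *aqp1a.1* and *aqp7*, against 26.8% of all genes. DESeq2 called the same 2 at an adjusted p under 0.05, a fit for which the share over all genes was not computed. These were also the 2 genes in which male and female libraries did not overlap, where 16.5% of all genes tested were free of overlap. The fold change was negative in 6 of the 8 and positive in 2, with a median of -0.56 on the log2 scale, beside -0.03 over all genes tested.

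**Figure D1:**
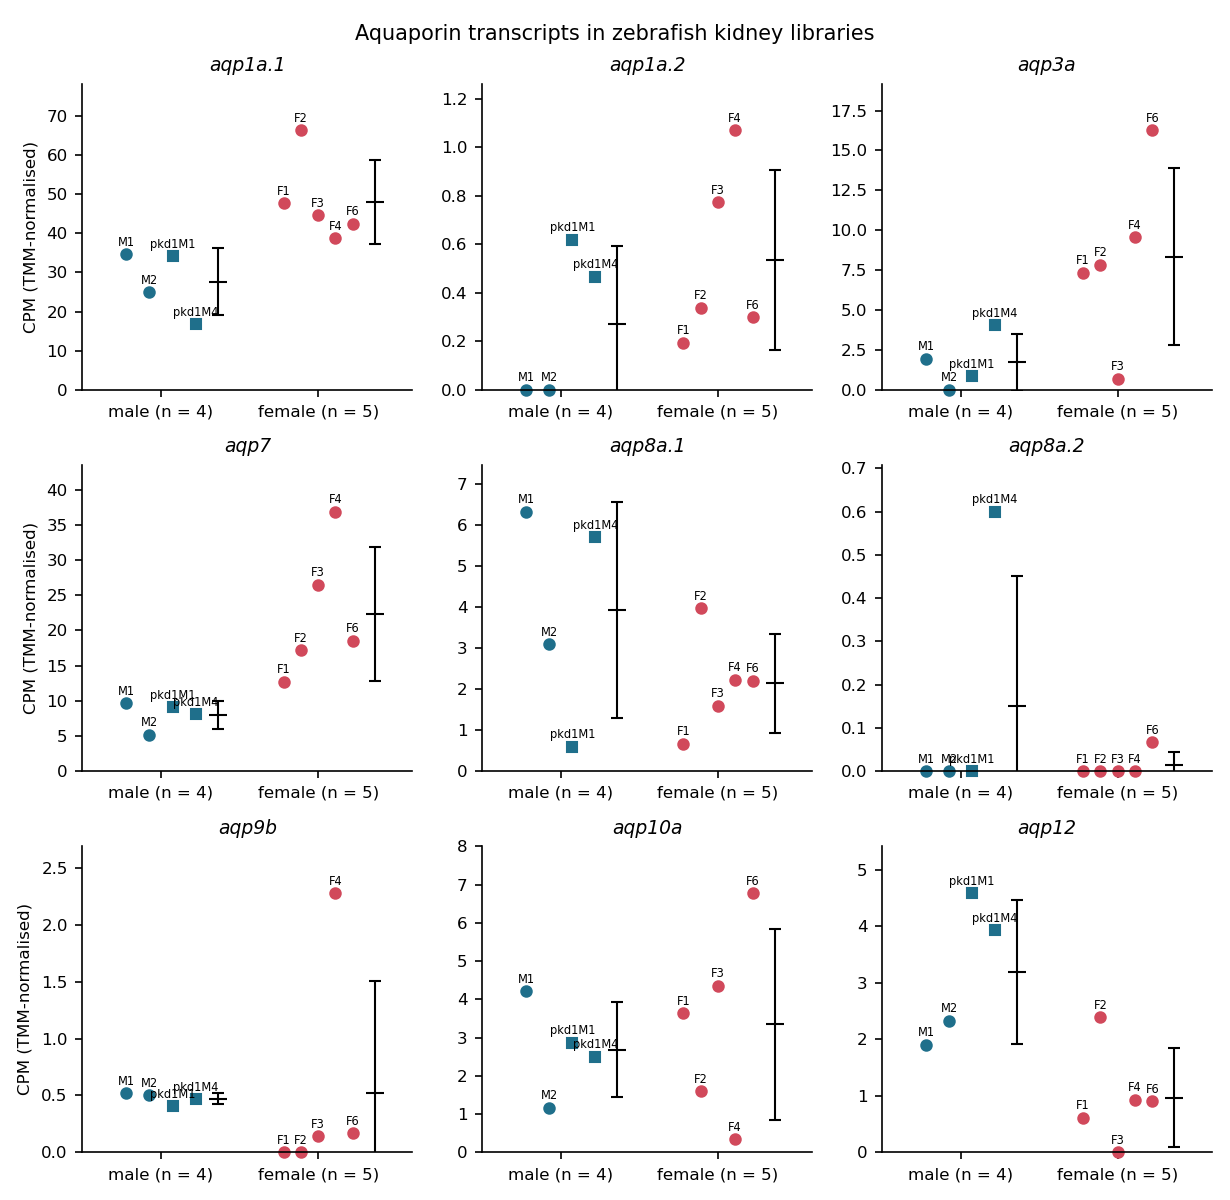
TMM-normalised CPM of the 9 aquaporin genes in each library, with males on the left and females on the right of each panel, on axes that start at 0. Points are libraries, squares are the males named with pkd1, and the bars give mean and SD and are cut at 0. The sexes are apart in *aqp1a.1* and *aqp7* and overlap in the other panels, and F4 stands alone in *aqp9b*.

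The gene *aqp7* encodes an aquaglyceroporin, which in mammals releases glycerol from fat cells and lies in the brush border of the proximal tubule. The gene (ENSDARG00000026787) lies on chromosome 21 from 12010505 to 12021593, in coordinates of the deposited table, whose build is GRCz11 in the methods and GRCz10 in the submitters' processing notes. Its level was 9.62, 5.17, 9.08 and 8.14 CPM in males, against 12.7, 17.2, 26.5, 36.9 and 18.5 CPM in females. Every male library was below every female library, and the females were spread more widely than the males. Means were 8.0 ± 1.99 CPM in males (SD, n = 4) and 22.4 ± 9.54 CPM in females (SD, n = 5). The log2 fold change was -1.48 (standard error 0.34, 95% interval -2.24 to -0.72), with an adjusted p of 0.0183 in edgeR's quasi-likelihood test. This fold change lies just inside the limit of 1.5.

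With each library left out in turn, *aqp7* kept an adjusted p under 0.05 in 9 of 9 fits, with log2 fold changes between -1.63 (without F1) and -1.24 (without F4). The fold change was -1.49 without pkd1M4. Against M1 and M2 alone the fold change of *aqp7* was -1.60 and the adjusted p was 0.121, in a range from 0.000779 to 0.38 over 17 alternatives of edgeR or DESeq2.

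Cell type markers moved with sex too. Summed macrophage markers were 630 to 1122 CPM in males and 1545 to 2559 CPM in females over 6 genes. Of these, 4 were lower in males at an adjusted p under 0.05 and none higher. The gene *cd74a* had the highest values in this sum, 456 to 817 CPM in males and 1154 to 2064 CPM in females. In contrast, *marco* overlapped between the sexes, with a log2 fold change of -0.05. Of 5 neutrophil markers, 2 were lower in males, and their sums of 1955 to 3673 CPM in males and 3452 to 5669 CPM in females overlapped. Summed distal nephron markers were 1508 to 2309 CPM in males and 494 to 1091 CPM in females, and all 10 were higher in males at an adjusted p under 0.05. Of 8 proximal tubule markers only *slc13a3* differed, higher in males, and the sums of 2720 to 3631 CPM in males lay within the 1277 to 4159 CPM of females. That overlap came from F6 alone, since the other 4 females lay between 1277 and 2139 CPM, below every male. The part of these shifts in the fall of *aqp7* was not tested. In whole kidney RNA, fewer cells of a type and less RNA per cell cannot be told apart.

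**Figure D2:**
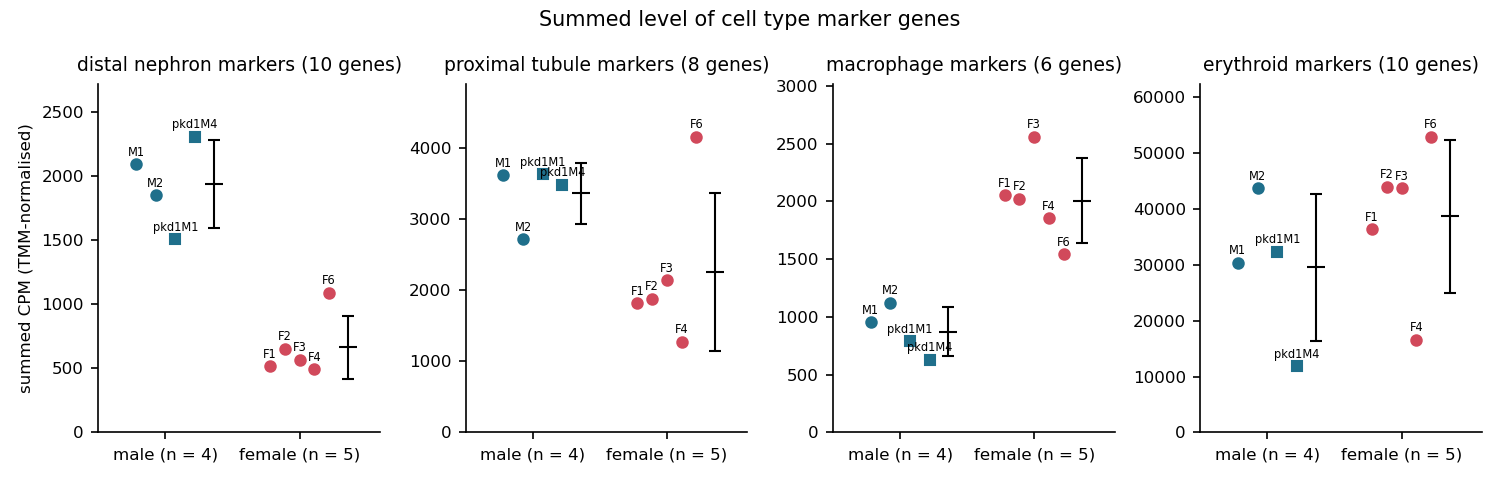
Summed TMM-normalised CPM of marker genes of 4 cell types in each library, males left and females right, with mean and SD as bars and squares for the males named with pkd1. Distal nephron sums are higher in every male library and macrophage sums lower, while proximal tubule and erythroid sums overlap.

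The classical water channel gene *aqp1a.1*, a homolog of the mammalian channel of red blood cells, endothelium and proximal tubule (ENSDARG00000023713), lies on chromosome 2 from 2737422 to 2749333. It had 34.6, 25.0, 34.2 and 16.7 CPM in males, against 47.8, 66.4, 44.6, 38.7 and 42.5 CPM in females. The highest males, M1 and pkd1M1, were close below the lowest female, F4. Means were 27.7 ± 8.51 CPM in males (SD, n = 4) and 48.0 ± 10.8 CPM in females (SD, n = 5). The log2 fold change was -0.80 (standard error 0.25, 95% interval -1.35 to -0.24) and did not pass the adjustment over all genes, with an adjusted p of 0.0629 in edgeR's quasi-likelihood test. In DESeq2 the adjusted p of *aqp1a.1* was 0.0237, and over 17 alternatives it ranged from 0.0237 to 0.302, with the sign negative in all 17.

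Summed erythroid markers overlapped between the sexes, at 11850 to 43680 CPM in males and 16600 to 52910 CPM in females, and none of 10 passed the test in edgeR. The lowest erythroid sum of each sex was that of pkd1M4 and of F4, the libraries with the lowest *aqp1a.1* of their sex. The highest erythroid sum of each sex was that of M2 and of F6, which had the second lowest *aqp1a.1* of their sex. Of 8 endothelial markers, 2 were higher in males, with sums of 294 to 433 CPM in males and 281 to 352 CPM in females. Without pkd1M4 the log2 fold change of *aqp1a.1* was -0.62, and without F2 it was -0.66. The part of these cells in its level was not tested.

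A tandem neighbour, *aqp1a.2*, begins 12548 bases after the end of *aqp1a.1*. It had 0, 0, 29 and 14 counts in males, against 7, 12, 32, 47 and 9 counts in females. The only male counts thus came from the libraries named with pkd1. The log2 fold change of -0.96 had a standard error of 1.41 (95% interval -4.06 to 2.15, adjusted p = 0.736, edgeR). Against M1 and M2 alone, where the gene has no counts, the fitted log2 value was -7.21, which depends on the prior count, with an adjusted p of 0.141 in a range from 0.109 to 0.877 over 14 alternatives. Against a floor of 3 counts in each of these 2 libraries the female mean of 0.536 CPM was at least 4.66-fold higher, a value added after the data were seen. M1 and M2 are the males without counts, so its direction was fixed beforehand. The mean floor was 0.115 CPM, and females ranged from 0.19 CPM (F1) to 1.07 CPM (F4). Within that range lay pkd1M1 and pkd1M4, at 0.62 and 0.47 CPM. As a share of the counts of the pair, *aqp1a.1* made up 98.9% ± 1.35 in males (SD, n = 4) and 98.8% ± 0.98 in females (SD, n = 5), with no difference found (2-sided exact permutation test over all splits, p = 0.952). Without the libraries named with pkd1 the male minus female difference was 1.2 percentage points (exact permutation test, p = 0.0952), beside 0.0803 with them. In that fit both males were at 100%, the highest share possible, and there were fewer splits than with all libraries. The lowest share in a library was 97.3%, in pkd1M4 (exact 95% interval 95.5% to 98.5%) and in F4 (96.4% to 98.0%). How reads shared by such near neighbours were assigned was set by the authors' estimation, and the intervals cover counting error only.

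**Figure D3:**
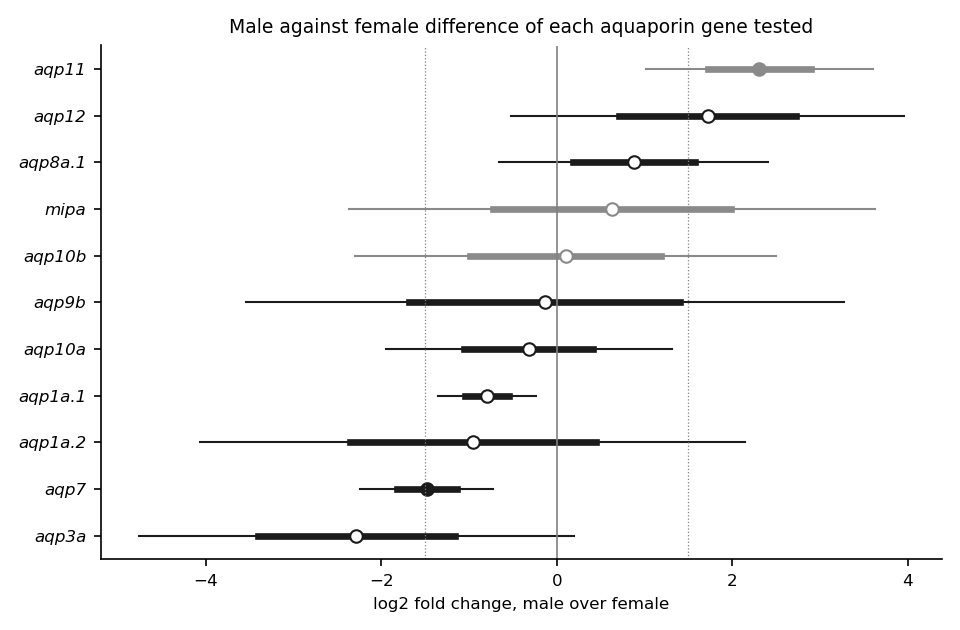
Log2 fold change, male over female, of the aquaporin genes tested, in black for the genes described first and in grey for other members of the family. Thick bars are 1 standard error and thin bars the 95% interval, filled points have an adjusted p under 0.05, and dotted lines mark -1.5 and 1.5. Only *aqp7* and *aqp11* are filled, and *aqp4*, with no male counts, is left out.

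Among the other aquaglyceroporins, *aqp3a* lies on chromosome 5 from 43006422 to 43011814, and its mammalian homolog lets water leave principal cells of the collecting duct on the blood side and is also a skin channel. Its level was 1.95, 0, 0.83 and 4.07 CPM in males, against 7.35, 7.84, 0.70, 9.55 and 16.3 CPM in females. In females, F1, F2, F4 and F6 were above every male, while F3 was among the low males. The log2 fold change was the largest in size among the 8 genes, at -2.28, with a standard error of 1.12 and a 95% interval of -4.76 to 0.19 (adjusted p = 0.224, edgeR). Skin markers, of which none of 5 passed the test, summed to 89.4 to 352 CPM in males and 30.7 to 219 CPM in females. Of the 5, *krt4* had the highest values, 62.0 to 268 CPM in males and 24.0 to 176 CPM in females. The single markers went both ways, with log2 fold changes of 0.43 for *krt4*, 1.66 for *krt5* and 1.72 for *evpla*. Those of *pkp1b* and *tp63* were -2.2 and -3.32, the direction of *aqp3a*, with *tp63* at most 1.73 CPM in males and 15.4 CPM in females. The highest sum of each sex was that of pkd1M4 and of F6, which also had the most *aqp3a* of their sex. F3 was low in both, while F4 had the lowest sum and the second highest *aqp3a*. Among males, M2 had a sum of 195 CPM, above those of M1 and pkd1M1, and no counts of *aqp3a*. The part of skin RNA in these levels was not tested. Without pkd1M4 the log2 fold change of *aqp3a* was -3.18 (adjusted p = 0.161, in a range from 0.0947 to 0.455 over 16 alternatives).

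The gene *aqp10a*, on chromosome 16 from 22288777 to 22294265, belongs to the glycerol-conducting branch and is a homolog of a channel of the human gut. It had 4.21, 1.17, 2.86 and 2.5 CPM in males, against 3.65, 1.61, 4.36, 0.34 and 6.78 CPM in females. All males lay within the range of the females, and the log2 fold change was -0.32 (standard error 0.74, 95% interval -1.94 to 1.31, adjusted p = 0.841 in edgeR).

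For *aqp9b*, on chromosome 7 from 30371893 to 30390376, the mammalian homolog takes up glycerol in liver. Its counts were 12, 15, 19 and 14 in males, against 0, 0, 6, 100 and 5 in females. In CPM the males lay between 0.41 and 0.52, and F4 reached 2.28 while the other females lay between 0 and 0.17. The log2 fold change was -0.14 with all libraries (standard error 1.54, adjusted p = 0.97, edgeR) and 2.53 without F4 (adjusted p = 0.335, in a range from 0.228 to 0.997 over 15 alternatives), so 1 library set its direction. F4 had the lowest sum of liver genes among females, 323 CPM, and the highest neutrophil sum of all libraries, 5669 CPM. The part of either cell type in the level of *aqp9b* was not tested.

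Of the remaining members, *aqp8a.1* lies on chromosome 12 from 20366109 to 20373058 and belongs to a class that in mammals passes water and ammonia. It had 6.33, 3.10, 0.60 and 5.70 CPM in males, against 0.67, 3.98, 1.6, 2.23 and 2.2 CPM in females. The highest male, M1, and the lowest, pkd1M1, lay on either side of all females. Male over female, the log2 value was 0.88 (standard error 0.69, 95% interval -0.66 to 2.41, adjusted p = 0.482 in edgeR).

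Its tandem neighbour *aqp8a.2*, separated from it by 4047 bases, had 18 counts in pkd1M4, 2 in F6 and 0 in the other 7 libraries. There, 3 counts, the limit that a count of 0 allows, correspond to 0.0641 to 0.13 CPM. The share of *aqp8a.1* in the counts of the pair was 90.5% in pkd1M4 (exact 95% interval 85.4% to 94.3%) and 97.1% in F6 (89.8% to 99.6%). Averaged over libraries the share was 97.6% ± 4.76 in males (SD, n = 4) and 99.4% ± 1.32 in females (SD, n = 5) (2-sided exact permutation test, p = 0.722; adjusted p = 0.952 for both pairs compared). With the share at 100% in 7 libraries, this test could not have reached a p under 0.05, so it does not compare the sexes.

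The protein of *aqp12* is of the intracellular kind, known in mammals from acinar cells of the pancreas. The gene lies on chromosome 22 from 2874838 to 2886937. It had 1.91, 2.33, 4.59 and 3.94 CPM in males, against 0.61, 2.40, 0, 0.93 and 0.90 CPM in females. Only F2 among the females reached the range of the males. Its log2 fold change was 1.72 (standard error 1.01, 95% interval -0.52 to 3.95, adjusted p = 0.322 in edgeR). With each library left out in turn, the value for *aqp12* lay between 1.40 (without F3) and 2.38 (without F2, adjusted p = 0.216 in edgeR). Over 16 alternatives its adjusted p ranged from 0.208 to 0.871. Exocrine pancreas markers were low in both sexes, with sums over 8 genes of 3.27 to 12.3 CPM in males and 2.94 to 17.5 CPM in females, and none of the 4 tested passed.

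The table holds 7 further aquaporin genes, 4 of which were tested. The largest counts were those of *aqp11* (ENSDARG00000100555), on chromosome 18 from 3157911 to 3166726, an intracellular aquaporin whose loss gives kidney cysts in mice. Its level was 49.3, 13.1, 15.2 and 25.8 CPM in males, against 3.01, 1.44, 3.49, 8.32 and 9.82 CPM in females. No male library overlapped with a female library. Its log2 fold change was 2.31 (standard error 0.59, 95% interval 1.02 to 3.60, adjusted p = 0.0265 in edgeR), past both thresholds. Without M1 it was 1.79 with an adjusted p of 0.0879, and without pkd1M4, F1 or F3 the adjusted p of *aqp11* was 0.0578, 0.0576 or 0.0605, and against M1 and M2 alone it was 0.0943, in a range from 0.000687 to 0.0943 over 17 alternatives. All 10 distal nephron markers were also higher in males. Summed testis markers were 56.8 to 120 CPM in males and 21.7 to 41.4 CPM in females over 9 genes. Of the 7 tested, 2 were higher in males at an adjusted p under 0.05 and none lower. The part of such marker shifts in the level of *aqp11* was not tested.

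The gene *aqp4* (ENSDARG00000010565), on chromosome 20 from 18163355 to 18186784, known in mammals from brain astrocytes and the collecting duct, had a count of 0 in all 4 male libraries. The 5 female libraries had 125, 30, 26, 6 and 69 counts. Against a floor of 3 counts in each male library, the female mean of 1.48 CPM was at least 15.0-fold higher, and without F1 at least 9.94-fold higher, a value added after the data were seen. This holds for the mean only, since the lowest female, F4, had 0.14 CPM, close above the highest male floor of 0.13 CPM. The gene passed the filter on low counts only through the females, in which it is high, so it is given with no test. F1, with the most oocyte RNA, had the highest value of 3.48 CPM, and F6, with the least oocyte RNA among females, followed with 2.3 CPM.

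For *mipa*, a homolog of the mammalian water channel of the eye lens, and for *aqp10b* the sexes overlapped, with log2 fold changes of 0.63 and 0.10 (adjusted p = 0.83 and 0.97 in edgeR). The genes *mipb*, with 1 to 9 counts in males and 2 to 11 in females, *aqp3b*, with 1 count in F4, and *aqp8b*, with none, were not tested.

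**Figure D4:**
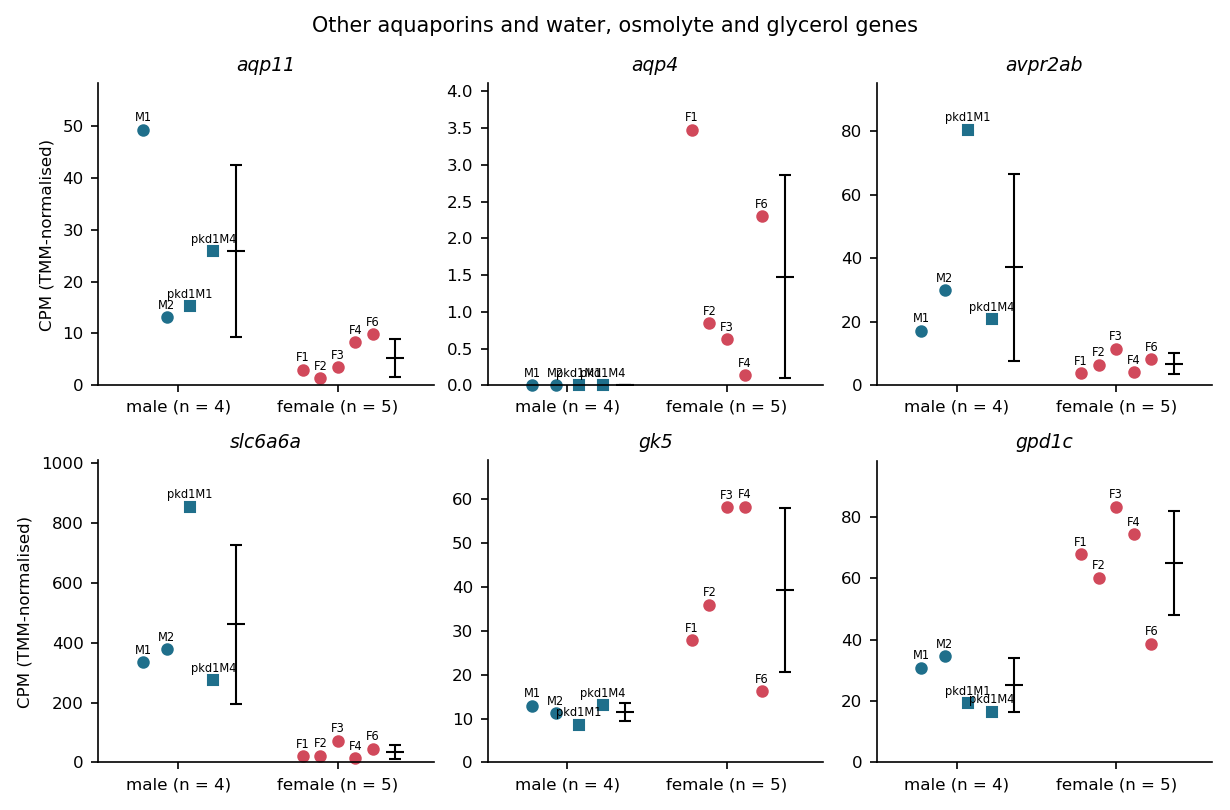
TMM-normalised CPM of *aqp11*, *aqp4* and 4 genes of water, osmolyte and glycerol handling in each library, males left and females right, with mean and SD as bars cut at 0 and squares for the males named with pkd1. In *aqp11*, *avpr2ab* and *slc6a6a* every male library is higher, in *aqp4*, *gk5* and *gpd1c* every male library is lower.

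Genes of water balance, osmolyte handling and glycerol handling were taken from 3 lists, and a link to these channels was not tested. Their counts are to be read against the 13.2% of all genes with an adjusted p under 0.05. Among vasopressin and related genes, 5 of 11 in the table were tested and 1 of the 5 was called, *avpr2ab*, a V2-type vasopressin receptor. Its level was 17.3, 30.1, 80.6 and 20.9 CPM in males, against 3.76, 6.49, 11.6, 4.24 and 8.22 CPM in females. The log2 difference of 2.44 had a standard error of 0.50 and an adjusted p of 0.0104 in edgeR. The list's median log2 fold change was 0.51. Of 11 osmolyte genes tested, only 1 was called, no larger a share than that over all genes. It was the taurine transporter gene *slc6a6a*, with 276 to 856 CPM in males and 13.4 to 73.2 CPM in females at a log2 difference of 3.71 (adjusted p = 0.00194 in edgeR, standard error 0.54), and the median of the list was 0.23. Against M1 and M2 alone *avpr2ab* was no longer called (log2 fold change 1.78, adjusted p = 0.0749, in a range from 2.12e-05 to 0.104 over 17 alternatives), while *slc6a6a* was called in all 17.

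Of 16 glycerol genes tested, 2 were lower in males and none higher at an adjusted p under 0.05, a share no larger than that over all genes, with a list median of 0.14. These were *gk5*, a glycerol kinase family gene, at 8.57 to 13 CPM in males and 16.2 to 58.3 CPM in females, and *gpd1c*, a glycerol-3-phosphate dehydrogenase gene, at 16.6 to 34.6 CPM in males and 38.7 to 83.3 CPM in females. Their log2 fold changes were -1.78 (standard error 0.37, adjusted p = 0.0108) and -1.36 (standard error 0.29, adjusted p = 0.0124), and only *gk5* passed the fold change limit as well (edgeR). F3 and F4, the 2 libraries with the most *aqp7*, were also the 2 highest for both genes, while F6, the next highest for *aqp7*, was the lowest female for both. Against M1 and M2 alone neither was called, with adjusted p of 0.119 for *gk5* and 0.126 for *gpd1c*, in ranges from 6.49e-05 to 0.119 and from 0.000158 to 0.133 over 17 alternatives each.

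Log2 CPM deviations from the mean of their sex were correlated over the 9 libraries, for the 3 members with the highest mean CPM. Sought among the genes tested that have a symbol were those that followed a member most closely. They were *elf2a* and *si:ch73-389k6.1* for *aqp1a.1* (Pearson r = 0.963 and 0.962), *dnajc3b* and *CACFD1* for *aqp7* (0.969 and 0.968) and *slc10a2* and *znf1119* for *aqp3a* (0.99 and 0.98). With 9 libraries that share their normalisation, these values describe the top of a ranking of the genes tested that have a symbol. The deviations leave out the difference between the sexes, in which *slc10a2* went the other way from *aqp3a*. Its mean was 95.8 CPM in males and 14.9 CPM in females (log2 fold change 2.69, adjusted p = 0.00146, edgeR). *CACFD1* and *znf1119* were low, with means of 0.74 and 1.93 CPM in males and 0.81 and 0.79 CPM in females.

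**Figure D5:**
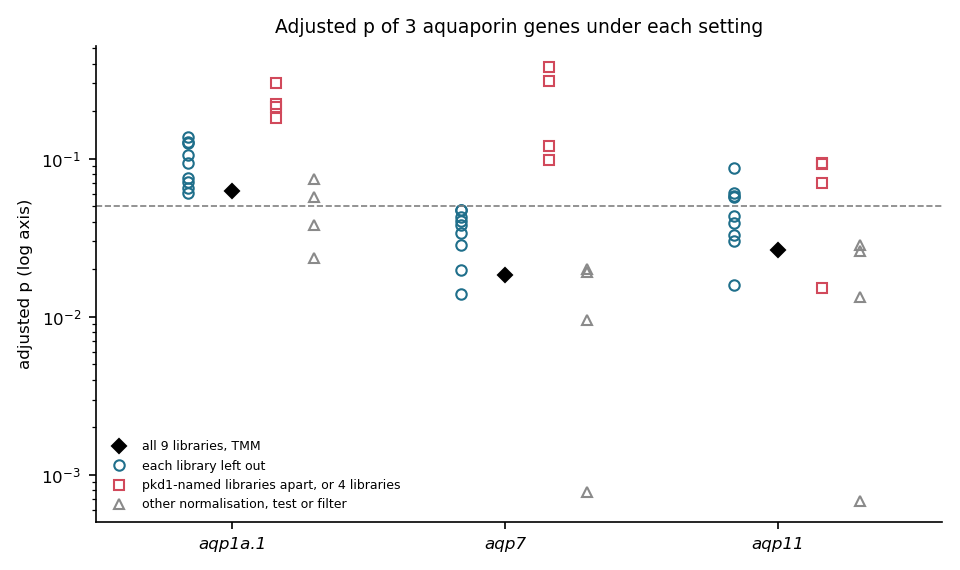
Adjusted p, on a log axis, of *aqp1a.1*, *aqp7* and *aqp11* with all libraries (diamonds), with each library left out (circles), in the fits that set the libraries named with pkd1 apart or use 4 libraries (squares) and with another normalisation, test or filter (triangles). The dashed line is 0.05, and all 9 circles of *aqp7* lie below it, none of *aqp1a.1* and 5 of *aqp11*.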

How the data were processed

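Paired-end reads of 9 kidney libraries were pseudoaligned by the authors with Kallisto, per the methods to GRCz11 with Ensembl annotation 101, while the submitters' processing notes name GRCz10. Tximport summed transcripts to genes. The deposited values are estimated counts (expected counts), whole numbers not normalised between libraries. The methods call them length-scaled TPM and the column headers scaled TPM. In the values, 17 genes of at most 150 bases with counts in 1 library had a median of 2 and a highest value of 8, no larger than in longer genes, and the table was treated as length-scaled. Coordinates are those of the table. No per-sample column was left unused (0). The columns pkd1M1, pkd1M4 and F6 were assigned to their sex only.

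Counts were filtered with filterByExpr, normalised with TMM and tested in R 4.3.3 by edgeR 4.0.16 (quasi-likelihood), with Benjamini-Hochberg adjustment over 22148 genes. Calls used the methods' limits, 0.05 for the adjusted p and 1.5 for the size of the log2 fold change. Shares of a pair were compared with 2-sided exact permutation tests over 126 splits with all libraries, and over fewer splits with libraries left out. Libraries of 1 sex differed beyond sampling noise in all 16 pairs (chi-square per degree of freedom at least 82.5). On simulated counts of this comparison, 15 of 67 genes changed by a log2 of 1.5, 33 of 67 changed by 2.5 and 46 of 66 changed by 4 were recovered, with 3 false calls among 97 in 21173 genes. The simulation changed 200 genes, while 2928 of 22148 had an adjusted p under 0.05 in the data. The adjustment was therefore stricter in the simulation, and its rates do not measure recovery in the data. Alternatives were RLE size factors, DESeq2 1.42.0, other filters, a lower fold change limit, each library left out, a replicate block, and the libraries named with pkd1 left out or given a term. All aquaporin genes are named, and of the related lists those past the thresholds; *gpd1c* was added after its values were seen. Members, lists and tests were chosen with earlier results of these data known. Python 3.11.15, pandas 2.3.3, scipy 1.17.1 and matplotlib 3.10.9 were used for tables and figures.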

Additional observations from a re-analysis of the deposited data

Results flagged for a closer look

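In 3 of 26 groups of libraries examined, the highest library lay further from the rest of its sex than a Dixon test at the 95% level allows, where chance flags about 1 group in 20 of normally distributed values, a rate that does not hold for counts near 0. For *aqp8a.2* this was pkd1M4, with 0.60 CPM where M1, M2 and pkd1M1 had 0, so that any count would have stood apart. For *mipa* it was pkd1M4 again, with 1.87 CPM against at most 0.28 in the other males. Among males, pkd1M4 also had the highest marker sums of liver, skin, testis, exocrine pancreas, oocyte and distal nephron, and the lowest erythroid sum. The part of these differences in its values of *aqp8a.2* and *mipa* was not tested. For *aqp9b* it was F4, with 2.28 CPM against at most 0.17 in the other females.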

How the results depend on the processing

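None of the 8 aquaporin genes tested passed both thresholds with all libraries, and leaving out each library in turn gave 0 to 1, the 1 being *aqp7* without M1, pkd1M1, F1, F2 or F6. With 1.5-fold in place of a log2 of 1.5 as the limit, 1 passed. At an adjusted p under 0.05, 1 gene was called with all libraries, 2 by DESeq2, 2 with at least 10 counts asked of every library, and 0 without the libraries named with pkd1, with a term for them, with the replicate block and with the same 4 libraries without the block. Those last 4 fits rest on fewer male libraries or on more coefficients. With at least 10 counts asked of every library, *aqp1a.1*, *aqp7*, *aqp8a.1* and *aqp10a* were the only members tested. Of all genes tested with all libraries, 13.2% had an adjusted p under 0.05, and this share was not computed for the other fits. Over all genes, the count past both thresholds was 1448 with all libraries, 635 without the libraries named with pkd1, 637 with a term for them, 859 with the replicate block, 355 with the same 4 libraries without it and 2899 at 1.5-fold.

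Replicate numbers 1 and 2 occur in both sexes, and the sources give them no shared origin. Deviations of same-numbered libraries correlated at 0.0328 for M1 with F1 and -0.0307 for M2 with F2 over 22148 genes, so the numbers were not used as pairs. With the replicate block, *aqp7* had a log2 fold change of -1.06 (adjusted p = 0.38, edgeR).

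The log2 fold changes that turned sign were smaller in size than their standard errors with all libraries. With libraries left out singly, *aqp9b* turned only without F4 and *mipa* only without pkd1M4. Why these libraries stood apart, and why the other genes turned, was not tested. For *aqp9b* the value was 7.0 with the replicate block and 7.0 with the same 4 libraries without it, where F1 and F2 have no counts, and -0.47 to 2.53 with a library left out. For *aqp10a* it was 0.0308 with the same 4 libraries and -0.62 to 0.11 with a library left out. For *aqp10b* it was -1.73 with the block, -0.97 with the same 4 libraries, -0.22 without the libraries named with pkd1 and with a term for them, and -0.21 to 0.55 with a library left out. For *mipa* it was -2.47 without the libraries named with pkd1, -2.48 with a term for them and -1.39 to 1.04 with a library left out. The male minus female share of *aqp1a.1* in its pair was -0.186 percentage points by medians, 1.2 without the libraries named with pkd1 and -0.294 to 0.61 with a library left out. For *aqp8a.1* it was 0 by medians, 0.588 without the libraries named with pkd1 and -2.59 to 0.588 with a library left out. Low counts, at most 56 in a library, limit *aqp10b* and *mipa*, and at most 47 *aqp1a.2*, while *aqp9b* had at most 19 outside F4. The lowest fold for *aqp4*, with a female library left out, was 9.94 to 18.4, chosen after seeing the data.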
